A study of Mus musculus with 257 samples.

Results

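BPtch mice, labelled as the Shh (Sonic hedgehog) model of medulloblastoma, carry by their name an allele of Ptch1, the receptor that holds the Shh pathway in check. Cerebella of BPtch mice labelled postnatal day 13 (P13) were set against WT cerebella of the same labelled age. The set was defined by the genotype and age labels, with earlier results of these data known. It holds 10 of the 257 RNA-seq libraries of the series, 5 BPtch and 5 WT. The B of the name was read as Blbp, since the series perturbs cells that express this radial glial protein. The WT labels name no driver, and neither group has a change in Ddx3x, the X-linked RNA helicase gene that the series studies. No label gives the strain, the sex, the copy number of the Ptch1 allele or the exons it removes. The libraries are bulk RNA of cerebellum, so fewer cells of a type and less RNA per cell cannot be told apart.

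Shh is secreted by Purkinje cells and drives the division of granule cell progenitors in the outer layer of the young cerebellum. Without ligand, Ptch1 keeps Smo inactive. With ligand, Smo signals through the Gli factors, which switch on Gli1, Ptch1, Hhip, Mycn and cyclin D genes, so that Ptch1 is both the brake and a target. In the mouse the outer layer thins out over the postnatal weeks as progenitors leave the cycle, and loss of Ptch1 is a classic route to medulloblastoma from these cells.

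Depth was 20848938 to 92341867 counts in BPtch and 17037742 to 19898201 in WT. Levels are CPM, counts scaled to the same library total in every sample. Fold changes are log2 values of BPtch over WT from edgeR's quasi-likelihood test (two-sided), given ± standard error, and a gene is called when its Benjamini-Hochberg adjusted p over all genes tested is under 0.05. No label says that replicates came from separate litters, and the p-values therefore cover only the spread among the libraries at hand. The libraries of the 2 genotypes also lie in different listing runs of the deposit (stretches in which titles run through the alphabet once), so listing run and genotype cannot be told apart.

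Several libraries stood apart before any comparison. WT replicate 3 had little of the RNA that marks cerebellar granule cells. It held 4.98 CPM of Pax6, a transcription factor of granule cell progenitors, against 175 to 306 in the other 4 WT libraries, 41.6 CPM of Zic1 against 1135 to 1555, and 7 CPM of Neurod1 against 497 to 731. Its summed level of the 8 granule progenitor markers was 120.6 CPM, against 1841 to 2421 in the other WT and 1527 to 1870 in BPtch. At the same time it held 145.4 CPM of Lhx9, 144.8 of Meis2 and 618.3 of Slc17a6, genes of midbrain and other neurons outside the granule lineage. WT replicate 5 came next among WT with 62.8 CPM of Lhx9, and WT replicates 1, 2 and 4 held at most 1.22. BPtch replicates 1 to 5 held 23.2, 55.35, 18.7, 1.32 and 25.1 CPM of Lhx9. BPtch replicate 2 was alone in its level of Slc6a3, the dopamine transporter, at 76.1 CPM against at most 0.93 in the other 9 libraries. Its summed level of the 15 midbrain and brainstem markers was 242.1 CPM, that of WT replicate 3 was 140.7, and the other 8 libraries held 64.4 to 98.5. Barhl2, 1 of these markers, made up 60.9 of 65.7 CPM in WT replicate 1 and 80.3 of 85.8 in WT replicate 2. In WT replicate 3 it was at 9.84 CPM. Tfap2d, another, held 32.4 CPM in WT replicate 3, 19.5 in WT replicate 5 and at most 0.235 in the other WT. BPtch replicates 1 to 5 held 6.18, 10.2, 5.37, 0 and 5.63 CPM of Tfap2d. The sums of those 8 libraries therefore do not show that they were alike in the other markers. With the midbrain and brainstem level as a covariate, edgeR called 20 genes between the genotypes, among them all 12 called without it. An animal number in the label of BPtch replicate 2 also stands in that of a library of another group and age (BD-FL-FL P30+ replicate 5), and which animal each came from cannot be settled from the labels.

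BPtch replicates 3 and 4 are labelled P13 but their titles read P14, and the titles of the other 3 BPtch libraries read P13. Those 2 also held 1621 and 1590 CPM of Xist, the RNA of the inactive X chromosome, and at most 0.0758 of Ddx3y, a Y-linked gene, while BPtch replicates 1, 2 and 5 held 1.9 to 5.96 CPM of Xist and 58 to 85.3 of Ddx3y. In WT, replicate 2 had 2748 CPM of Xist and no count of Ddx3y, and the other 4 had at most 4.05 CPM of Xist. Title day and these sex-linked levels moved together within BPtch and cannot be told apart there.

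Ptch1 (ENSMUSG00000021466, chromosome 13, 63508328 to 63573598 of GRCm38, minus strand) did not differ between the genotypes beyond the spread of the libraries. BPtch replicates 1 to 5 held 181, 196, 219, 240 and 194 CPM. WT replicates 1 to 5 held 257, 216, 144, 223 and 187 CPM. All 5 BPtch values lay inside the WT range. The log2 fold change was 0.02 ± 0.15 (95% interval -0.32 to 0.35, adjusted p = 0.996), and without WT replicate 3 it was -0.07 ± 0.13. A count over the whole gene cannot check an allele whose missing exons are not named, since transcripts that lack some exons still add reads. The level of Fabp7, the gene of Blbp, was 173 ± 89.3 CPM in BPtch and 231 ± 81.3 in WT (SD, n = 5 each), and that of Ddx3x was 395 ± 44.0 and 341 ± 27.9 CPM, neither of them called.

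No gene of the Shh pathway was called between the genotypes. Of 17855 genes tested 12 were called (0.0672%), 7 higher and 5 lower in BPtch, and 1140 (6.38%) had an unadjusted p under 0.05. The lists of Shh ligands, receptors, transducers and targets held 35 tested genes, of which edgeR and DESeq2 each called 0 and 1 had an unadjusted p under 0.05. Without WT replicate 3 edgeR called 22 of 18076 genes (0.122%), 0 of them from these lists, where 4 had an unadjusted p under 0.05, against 8.79% of all genes in that fit. Over all 35 lists of pathways and cell types, 344 tested genes, edgeR and DESeq2 also called 0, and 11 had an unadjusted p under 0.05.

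On the ligand side, 8 of 9 listed genes passed the filter on low counts, and the remaining one, Dhh, stayed at or under 0.265 CPM in every library. Shh, the ligand itself, was at 2.25 ± 0.72 CPM in BPtch and 3.45 ± 1.23 in WT (SD, n = 5 each), with a log2 fold change of -0.61 ± 0.32 (adjusted p = 0.852). The highest WT value, 5.3 CPM, was that of replicate 3. Scube1, which helps to release secreted hedgehog, had the lowest value among these genes without WT replicate 3, -0.67 ± 0.15 (adjusted p = 0.227), and -0.52 ± 0.22 with it. BPtch held 18.9, 18, 12.2, 12.7 and 16.2 CPM of Scube1 and WT 22.7, 31.4, 11.6, 26.9 and 20.1. Every BPtch value lay under the 4 WT values other than replicate 3, a pattern that 2.65% of all genes tested showed. The ligand list's median log2 fold change was -0.33, against -0.01 over all genes tested.

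Receptors and binding proteins lay close to 0. The 7 members, all tested, had a median of -0.01, and the highest value was 0.46 for Hhip. Smo, the signal transducer that Ptch1 restrains, was at 28.9 ± 4.08 CPM in BPtch and 29.3 ± 3.8 in WT. Its 95% interval ran from -0.26 to 0.23. The co-receptors Boc, Cdon and Gas1 had log2 fold changes of 0.05, -0.03 and -0.18. Boc was the gene of these that WT replicate 3 weighed on most, with 17.3 CPM there against 86 to 157 in the other WT libraries, and its value without that library was -0.21 ± 0.21.

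Hhip, a membrane protein that binds and sequesters hedgehog ligands and is itself a Gli target, held 11.9, 8.25, 11.3, 8.75 and 7.22 CPM in BPtch. In WT it held 5.4, 6.64, 7.38, 10.1 and 5.18 CPM. WT replicate 4 lay above 3 of the 5 BPtch libraries, so the groups overlapped. The difference of 0.46 ± 0.22 had a 95% interval of -0.01 to 0.94 and an adjusted p of 0.793.

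Among transducers and targets, Gli1, the most widely used readout of the pathway, held 18.7, 23, 17.5, 19.6 and 24.8 CPM in BPtch. WT held 22.3, 36.4, 4.98, 20.4 and 18.2 CPM. The outer WT values came from replicates 2 and 3, and BPtch lay between them. Its log2 fold change was 0.05 ± 0.36, with a 95% interval of -0.75 to 0.84. Without WT replicate 3 it was -0.20 ± 0.18 and the interval ran from -0.60 to 0.21. An increase of Gli1 by 1 on the log2 scale lay outside both intervals.

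Gli2, the main activator downstream of Smo, held 10.3 and 12 CPM in BPtch replicates 3 and 4, 16.1 to 18.2 in the other 3 BPtch libraries and 18.2, 21.2, 11.8, 25.2 and 22.2 in WT, a log2 fold change of -0.42 ± 0.20 (adjusted p = 0.794). The 2 lowest BPtch values were those of the libraries titled P14. Sufu, which binds and restrains Gli proteins, was at 57.1 to 76.8 CPM in BPtch and at 77.8 to 92.1 in the 4 WT libraries other than replicate 3, which held 24.7. Its log2 fold change was -0.10 ± 0.27 with all 10 libraries and -0.32 ± 0.09 without WT replicate 3 (adjusted p = 0.329). Over the 13 transducers the median was -0.16, and over the 11 targets -0.09. Without WT replicate 3 both medians were -0.20, against 0.01 over all genes tested.

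The targets that serve growth showed the same absence of calls. Ccnd1, which encodes cyclin D1, held 44.1 ± 11.8 CPM in BPtch and 50.5 ± 6.13 in WT. Mycn, the growth-promoting factor that Shh induces in granule progenitors, held 23.2, 28.9, 10.9, 11.3 and 24.2 CPM in BPtch and 21.3, 26.7, 8.2, 26.5 and 29.4 in WT. Sfrp1, a secreted Wnt inhibitor that is high in Shh tumours, held 47.8, 58.1, 22.7, 24.5 and 57.4 CPM in BPtch and 45.5, 39.8, 12.7, 51.1 and 52 in WT. For Mycn and Sfrp1 the low values in BPtch were the 2 libraries titled P14 and the low value in WT was replicate 3. Ccnd2, cyclin D2, had the same arrangement, with 49.1 and 64.3 CPM in those BPtch libraries and 33.4 in WT replicate 3.

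**Figure D1:**
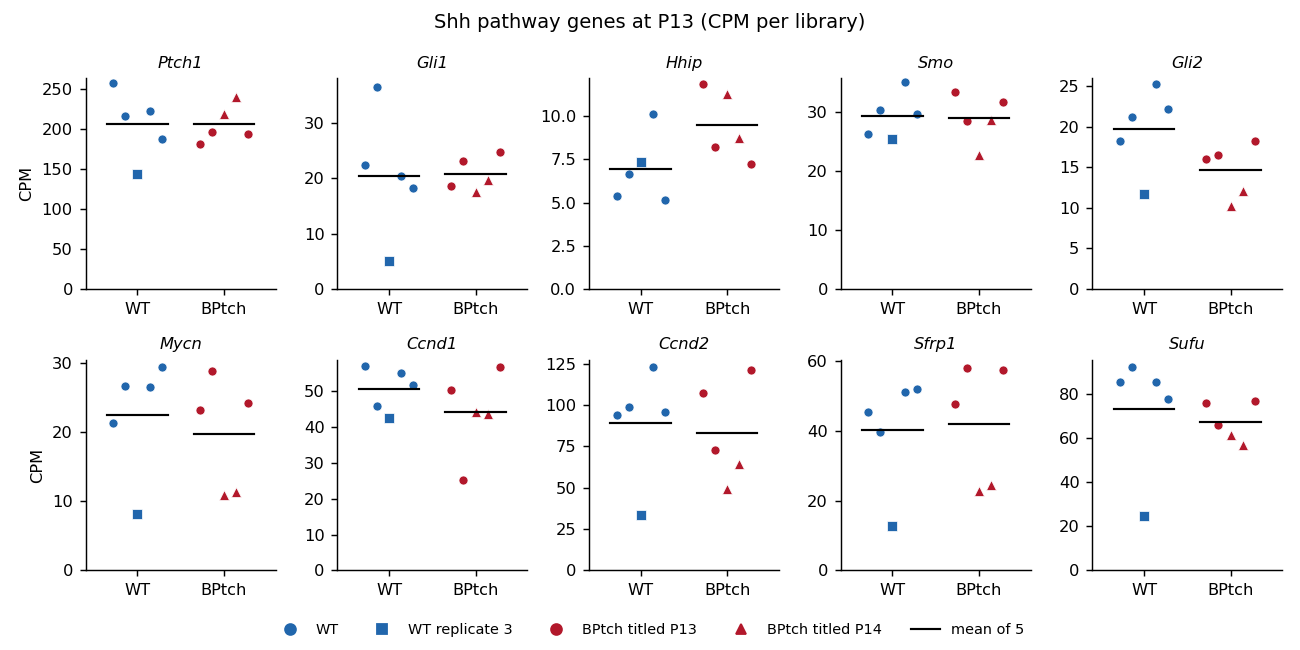
CPM of 10 Shh pathway genes in each library at P13, with WT in blue and BPtch in red, the black bar the mean of 5, squares WT replicate 3 and triangles the BPtch libraries titled P14. The genotypes overlap in all 10 panels when all libraries are read, and WT replicate 3 is the lowest WT value for 9 of them.

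Several list medians depended on whether WT replicate 3 was included. Mature granule neuron genes had a median log2 fold change of 0.26 with all libraries and 0.02 without that one. For Purkinje cell genes the medians were 0.29 and 0.00 (15 of 15 tested, 0 called in both fits), and for oligodendrocyte precursor genes -0.35 and 0.08. Genes of G2 and mitosis went the other way, from -0.32 to -0.55 (18 of 18 tested, 0 called). Granule progenitor genes went from -0.14 to -0.42 (8 of 8 tested, 0 called), and without WT replicate 3 all 8 had values under 0, from -1.14 to -0.18. None of these members passed the test, and the smallest adjusted p in the granule progenitor list was 0.441.

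**Figure D2:**
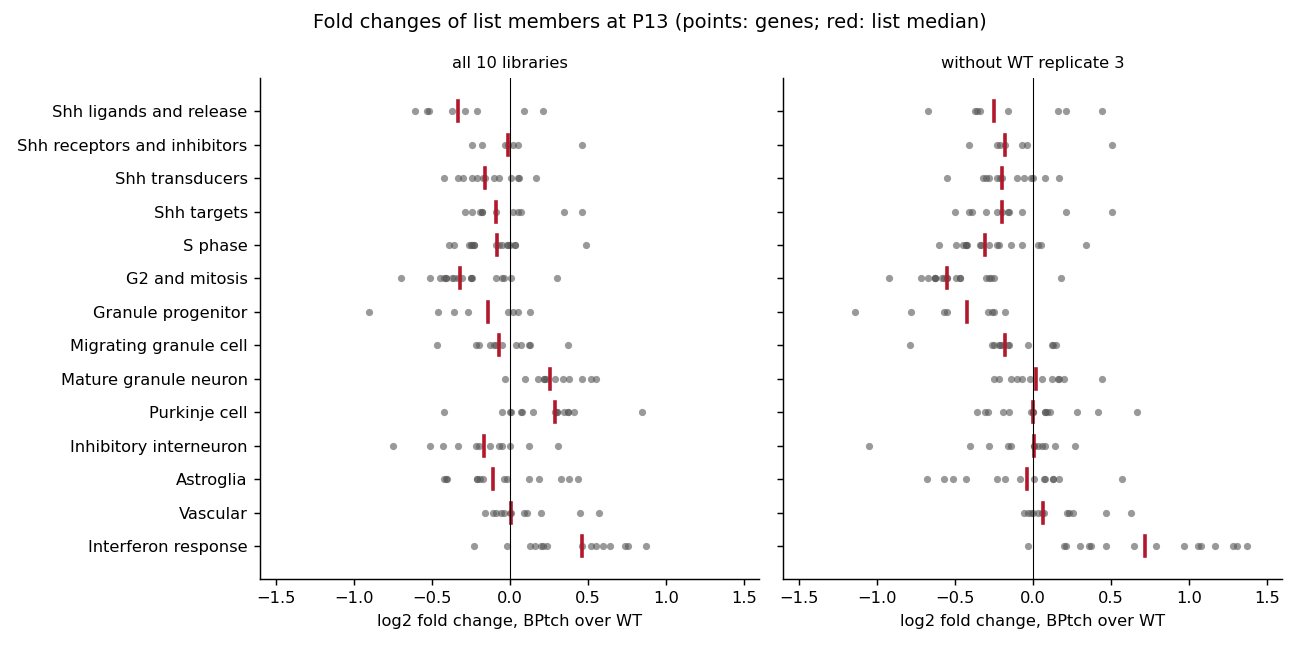
Log2 fold change of BPtch over WT for the tested members of 14 gene lists, each point a gene and each red bar a list median, with all 10 libraries on the left and without WT replicate 3 on the right. The mature granule and Purkinje medians lie at 0.26 and 0.29 on the left and at 0.02 and 0.00 on the right.

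Proliferation genes were not called between the genotypes, and within BPtch they were lower in the 2 libraries titled P14. Mki67, a marker of cycling cells, held 76.7, 40.9, 25.2, 24.9 and 95.8 CPM in BPtch replicates 1 to 5. WT held 50.6, 66.7, 11.4, 74.9 and 59.6 CPM. The 2 highest of the 10 values were BPtch, and so were 3 of the 4 lowest. The log2 fold change was 0.01 ± 0.48, with a 95% interval of -1.06 to 1.08, which includes a change by 1 in either direction. Both libraries titled P14 lay under the 3 titled P13 for 16 of 18 G2 and mitosis genes and 13 of 16 S phase genes. Over all genes tested 29.6% had that arrangement. Foxm1, a transcription factor that drives mitotic genes, was at 6.13 and 6.3 CPM in the pair and at 12.4 to 19.1 in the other 3, and Top2a, the topoisomerase of dividing cells, was at 21.3 and 22.5 against 26.6 to 69.5.

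Of 8 granule progenitor genes 4 had the same arrangement, against 29.6% of all genes tested. Lists outside the granule lineage had it too, with 5 of 6 oligodendrocyte precursor genes, 7 of 13 microglia genes and 4 of 8 midbrain and brainstem genes. Among vascular genes 0 of 12 had it. Atoh1, the transcription factor that defines granule progenitors, held 0.758 and 0.439 CPM in the libraries titled P14 and 2.09, 2.01 and 3.14 in the others. WT held 2.46, 4.28, 2.07 and 2.81 CPM in replicates 1, 2, 4 and 5 and no count in replicate 3. Barhl1, another progenitor factor, held 42.1 and 27.9 CPM against 81.8 to 99.5, and Dcx, a microtubule protein of migrating neurons, 285 and 259 against 464 to 506. Pax6 and Zic1 did not have it, with 181 and 206 CPM of Pax6 in the pair against 178 to 236, and 1057 and 1128 of Zic1 against 929 to 1193. Of 12 genes of migrating granule cells, 9 were lower in both than in the other 3.

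Genes of mature neurons were arranged in the opposite way. Both libraries titled P14 lay above the other 3 BPtch libraries for 11 of 12 mature granule neuron genes and 14 of 15 Purkinje cell genes, against 14.4% of all genes tested. Cbln3, a synaptic organizer of granule neurons, held 1007 and 1065 CPM in the pair and 559, 190 and 748 in BPtch replicates 1, 2 and 5. Itpr1, the calcium channel abundant in Purkinje cells, held 2341 and 2430 CPM against 1065, 735 and 1497. BPtch replicate 2, the library with the high Slc6a3, was the lowest of the group for both. Choroid plexus genes were also higher in the pair, for 8 of 9 members, with a summed level of 1539 and 5913 CPM against 178 to 718. The WT libraries were also widely spread in this sum, at 131.1, 2437, 296.2, 3243 and 158.5 CPM in replicates 1 to 5. No test was made between 2 and 3 libraries, and day, sex-linked levels and tissue content were not separated. Leaving out both libraries titled P14 left 2 genes called.

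**Figure D3:**
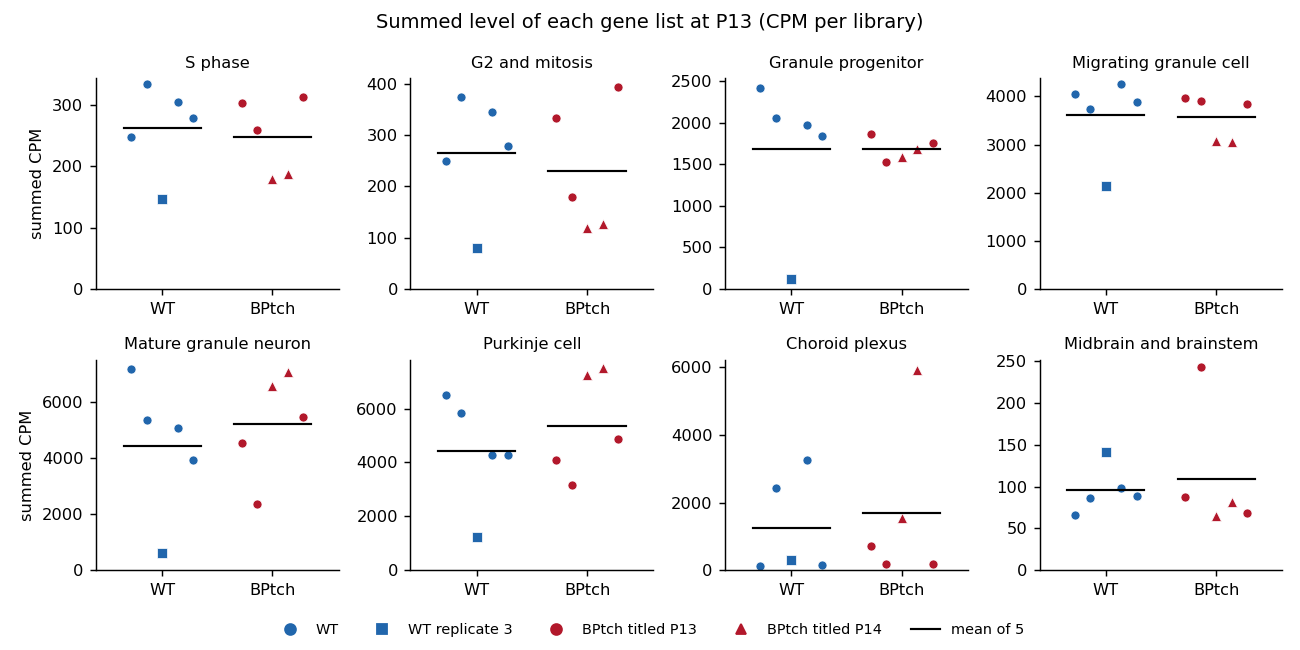
Summed CPM of 8 gene lists in each library at P13, with symbols as in the plot of Shh genes. The BPtch libraries titled P14 hold 119.2 and 126 CPM of G2 and mitosis genes against 178.8 to 395 in the other 3, and 7245 and 7490 CPM of Purkinje genes against 3161 to 4867.

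The ages around P13 place these levels. In WT, Mki67 was at 230 to 510 CPM at P5 and 0.655 to 1.69 from P30 on (P30+). BPtch had 45.5 to 560 CPM at P5, and at P30+ replicates 1 and 2 held 0.951 and 1.78 CPM while replicates 3 to 5 held 1334, 1121 and 979. Those 3 lay in the range of the 5 BPtch tumours, 641 to 1231 CPM, or above it. By their labels, P30+ replicates 3, 4 and 5 carry the animal numbers of tumour replicates 1, 3 and 2. These cerebella and tumours are therefore not independent. Gli1 followed, with 21.3 and 22 CPM in P30+ replicates 1 and 2, 263 to 365 in replicates 3 to 5 and 149 to 393 in tumours. Sfrp1 held 10.3 and 11 CPM in the first pair and 1143 to 1376 in the other 3. At P13 no BPtch library came near these levels. The highest BPtch values at P13 were 24.8 CPM of Gli1, 58.1 of Sfrp1 and 95.8 of Mki67. The low values of Gli1 within BPtch P5 (6.185 CPM in replicate 2 and 12.8 in replicate 3, against 36.75 to 65.09 in the others) lay under the WT range of 43.75 to 93.02 CPM, as did the 36.75 of replicate 4. The same replicates 2 and 3 were low in granule markers, with 82.8 and 232.8 CPM of Zic1 against 446 to 914 in the other BPtch P5 libraries and 19.2 and 53.8 of Pax6 against 132 to 280.

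**Figure D4:**
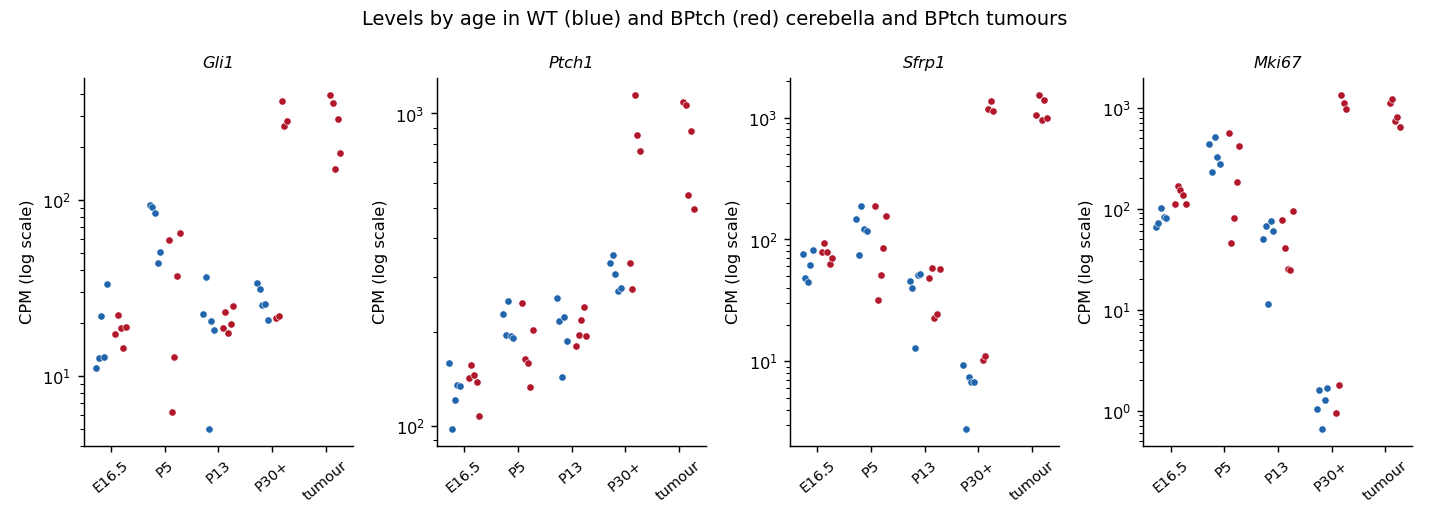
CPM on a log scale of 4 genes in each WT (blue) and BPtch (red) cerebellum by labelled age and in BPtch tumours. At P13 both genotypes share a range, and from P30 on 3 of 5 BPtch cerebella lie within the tumour range or above it for Gli1, Ptch1, Sfrp1 and Mki67. Those 3 cerebella carry the animal numbers of 3 of the tumours.

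Other cell types gave no call either. Pax2, which marks precursors of inhibitory interneurons, had the lowest fold change of its list in both fits. BPtch held 9.46, 8.63, 7.38, 9.08 and 9.18 CPM. WT held 17.9, 21.8, 0.711, 23.3 and 11.1 CPM. All BPtch values lay under 4 WT values and above that of WT replicate 3. The log2 fold change was -0.75 ± 0.57 with all 10 libraries (adjusted p = 0.953) and -1.05 ± 0.18 without WT replicate 3 (adjusted p = 0.105). It passed the threshold, at -1.23, in a fit that also left out WT replicate 5 and BPtch replicate 2, an alternative chosen after the values were seen. The other tested interneuron genes ran from -0.40 to 0.27 without WT replicate 3, and the list's median was 0.01.

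Rgs5, a pericyte gene, held 163, 101, 175, 190 and 184 CPM in BPtch and 104, 126, 124, 105 and 93.1 in WT. All but BPtch replicate 2 lay above every WT value. The log2 fold change was 0.57 ± 0.17 (adjusted p = 0.538), and the 12 vascular genes as a list had a median of 0.00. Pcp4, a calmodulin-binding peptide of Purkinje and other neurons, was at 142 ± 35.6 CPM in BPtch and 80.5 ± 27.0 in WT (0.85 ± 0.26, adjusted p = 0.554), and the other Purkinje genes had values of at most 0.41.

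Interferon-response genes had a median of 0.46 with all libraries and 0.72 without WT replicate 3, and edgeR called 0 of 15 and 0 of 16 tested members, with 1 and 6 at an unadjusted p under 0.05. Over all genes tested the shares at an unadjusted p under 0.05 were 6.38% and 8.79%. Ifih1, an intracellular sensor of double-stranded RNA, held 2.23, 3.45, 3.17, 3.44 and 3.75 CPM in BPtch and 1.17, 1.56, 3.39, 1.48 and 1.16 in WT. Without WT replicate 3 the groups did not overlap, and the value was 1.28 ± 0.21 (adjusted p = 0.075). Ifi44, Oasl2 and Rsad2 had the same arrangement, so 4 of 15 members lay above the 4 other WT libraries, against 1.53% of all genes tested. Ifit3 and Rtp4 did not. With all 10 libraries they stood at -0.23 and -0.02, and without WT replicate 3 at 0.37 and 0.36. Genes of microglia, the immune cells of the brain, had medians of -0.23 and 0.05 in the 2 fits.

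The genes that were called belong to a few places in the genome and to no list. Hjurp was the most abundant. It encodes the chaperone that loads the centromeric histone CENP-A and lies on chromosome 1 (88262471 to 88277633, minus strand). BPtch held 156, 200, 145, 144 and 193 CPM and WT 39.8, 61, 44, 39.4 and 47.1. The groups did not overlap. The log2 fold change was 1.87 ± 0.14 (adjusted p = 0.00032). No 75-base window of its longest GENCODE transcript occurred in a transcript of another gene. Hjurp was called in all 23 alternative settings, with log2 fold changes of 1.80 to 1.97. Mki67 and Top2a, described above, were not called.

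Another 6 genes were higher in BPtch, and all lie in 1 stretch of chromosome 14. Plac9a (25887506 to 25903100), Gm9780 (26027282 to 26042711) and Plac9b (26167405 to 26182480) are copies of a gene for a small secreted protein. Each is followed by a copy of a gene for a membrane protein: Tmem254a (25923300 to 25927672), Tmem254c (26063919 to 26067355) and Tmem254b (26203369 to 26207041). All are on the minus strand. The upstream sequence of the copies shows how alike they are. In the RefSeq promoters of GRCm38.p6, the 3 Plac9 copies share a run of 222 bases and the 3 Tmem254 copies a run of 284 bases. Of each run, 43 bases for Plac9 and 234 for Tmem254 lie upstream of the annotated starts. All 43 of the first and the first 60 of the second are printed, in capitals because all 3 copies hold every base.
Plac9a, Gm9780 and Plac9b: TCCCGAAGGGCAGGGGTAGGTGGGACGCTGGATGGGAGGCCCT
Tmem254a, Tmem254c and Tmem254b: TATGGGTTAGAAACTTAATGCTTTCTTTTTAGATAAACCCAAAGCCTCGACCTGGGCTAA
The first lies at chr14:25903101-25903143, chr14:26042867-26042909 and chr14:26182481-26182523, and the second at chr14:25927847-25927906, chr14:26067600-26067659 and chr14:26207216-26207275, all read on the minus strand.

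The transcripts were nearly as alike. Of the 75-base windows in the longest transcript, 99.6% for Plac9a, 100% for Gm9780 and 100% for Plac9b occurred in another copy, and 66.2%, 100% and 100% for Tmem254a, Tmem254b and Tmem254c. How the authors' counting treated reads that fit several copies is not given in the sources used here, so the 3 values of a family are uncertain as separate genes. Plac9a held 5.14, 2.01, 2.38, 4.69 and 5.14 CPM in BPtch and 0.235, 0.604, 0.492, 0.583 and 0.302 in WT. Its log2 fold change was 3.12 ± 0.36 (adjusted p = 0.0102). Plac9b and Gm9780 were at 2.84 ± 0.30 and 2.79 ± 0.39 (adjusted p = 0.00687 and 0.0354). Tmem254a held 26.6, 17.5, 18.1, 19.6 and 26.3 CPM in BPtch and 7.98, 9.21, 9.57, 9.43 and 7.74 in WT, a log2 fold change of 1.30 ± 0.14 (adjusted p = 0.00687), and its copies b and c were at 1.47 ± 0.17 and 1.36 ± 0.18. BPtch and WT did not overlap for any of the 6 copies. Over all genes tested, all 5 BPtch values lay above all 5 WT values for 0.924%.

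In BPtch 5 genes were lower. Gm6356, a predicted gene on chromosome 14 (6965449 to 6973818), held 3.99, 4.38, 5.3, 4.77 and 3.32 CPM in WT and 0.047 to 0.192 in BPtch, and its log2 fold change was -5.45 ± 0.34 (adjusted p = 0.000124). Of its transcript windows 33.7% occur in other genes, most often in Gm3542, Gm9603 and Gm3468, so reads of relatives cannot be told apart from its own there. Catspere1, a pseudogene related to a subunit of a sperm calcium channel, is on chromosome 1 (177808550 to 177962233), next to Catspere2 (177983423 to 178172704). Catspere1 held 1.94, 1.56, 4.65, 1.96 and 2.36 CPM in WT and 0.0366 to 0.163 in BPtch (-4.67 ± 0.44, adjusted p = 0.00328). Catspere2 held 3.23 to 7.44 CPM in WT and 1.5 to 1.77 in BPtch (-1.77 ± 0.22, adjusted p = 0.0119). The other two were Gm5308, a processed pseudogene on chromosome 6 (67734251 to 67735604), at -1.94 ± 0.27 (adjusted p = 0.0354), and Pcdhgb8, in the protocadherin gamma cluster of chromosome 18, at -1.99 ± 0.22 (adjusted p = 0.00761). Pcdhgb8 shares exons with 21 annotated genes of its cluster, so its reads cannot be assigned with certainty.

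**Figure D5:**
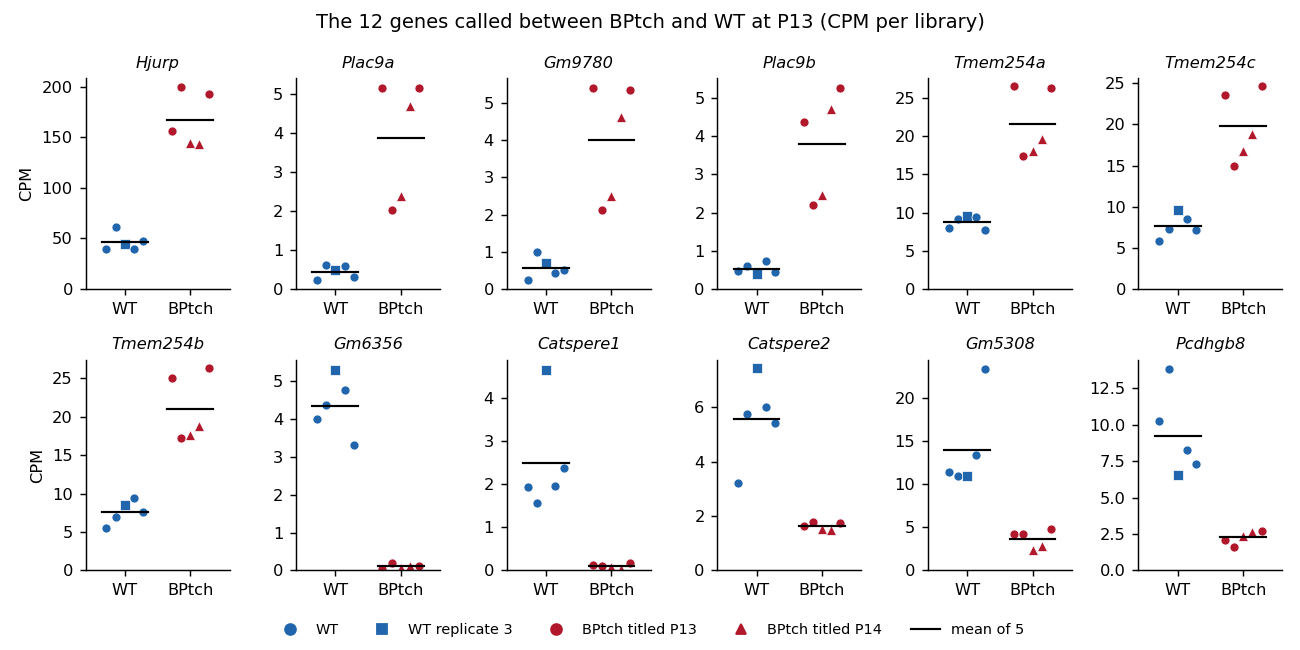
CPM of the 12 called genes in each library at P13, with symbols as in the plot of Shh genes. The genotypes do not overlap in any panel, and for these genes WT replicate 3 lies with the other WT libraries or farther from BPtch, except for Pcdhgb8, Tmem254a, Tmem254c and Gm5308, where it is the WT library nearest BPtch.

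Levels of some of these genes were also read in the other P13 groups. The genes and the level of 1 CPM used here were chosen after their values were seen. Gm6356 was above 1 CPM in all 5 WT libraries, in all 18 libraries labelled as the Wnt model (BCP and BDCP groups, with no Ptch in their names) and in 0 of 5 BPtch libraries. It was above 1 CPM in 0 of 15 libraries of the Shh model with a Ddx3x perturbation (BPtchD groups). In the BD groups, which have the Ddx3x perturbation and no Ptch in their names, it was above that level in 1 of 14 libraries, BD-FLY replicate 2. That library held 2.06 CPM of Gm6356, 2.61 of Catspere1 and 16.45 of Gm5308, values like those of WT, and 0.201 of Plac9a. The other BD-FLY libraries held 0 to 0.187 CPM of Gm6356 and 4.67 to 6.06 of Plac9a, values like those of BPtch. Of the 47 P13 libraries outside the comparison, Gm6356 was above 1 CPM in 19 and Plac9a below it in 10, and 9 libraries were in both sets.

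Hjurp in WT was at 120 to 281 CPM at P5 and 89.2 to 168 at P30+. The 5 WT libraries of P13, at 39.4 to 61 CPM, lay under all of these, and 1 embryonic WT library held 39.96 CPM. The BD groups held 33.4 to 201 CPM at P13. BD-FLY replicate 2, the library like WT for Gm6356, held 54.6 CPM, and the other BD-FLY libraries held 92.1 to 201. The lowest BD value, 33.4 CPM, was that of BD-FL-FL replicate 1, which was not above 1 CPM of Gm6356. The Wnt-model groups held 33.8 to 180 CPM at P13 and the BPtchD groups 80.4 to 269. Gm6356 differed among WT libraries of 1 age, since P5 replicates 1 and 2 held 3.47 and 3.23 CPM and replicates 3 to 5 held 0.144 to 0.224.

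A contrast of Shh against normal background was also available at P13 with a Ddx3x perturbation on both sides. It is not the same contrast as BPtch against WT. The names of both its sides carry the B, while the WT labels name no driver. FLPlus (5 BPtchD-FLPlus against 4 BD-FLPlus), FLY (5 against 5) and FL/FL (5 against 5) share no library with the comparison of BPtch and WT. The BPtchD and BD libraries lie in different listing runs, as BPtch and WT do, so run and background cannot be told apart there either. In FLPlus 6 of 17921 genes were called (0.0335%), 1 higher and 5 lower, while DESeq2 called 1162 and 3610 (20.1%) had an unadjusted p under 0.05. The higher one was Fstl5 (0.69), and the lower ones included Prkcd, Car7, Clec3b and Eps8l1 (-0.74, -1.06, -1.47 and -3.45). This count rested on single libraries, since it was 953 without BD-FLPlus replicate 2 and 0 without BPtchD-FLPlus replicate 4 or 5. In FLY 0 of 18075 were called (0%) by edgeR and 8 by DESeq2, with 732 genes at an unadjusted p under 0.05. In FL/FL 0 of 18223 were called (0%) by edgeR and 33 by DESeq2, with 1492 genes at an unadjusted p under 0.05. Of the 12 genes called between BPtch and WT, Catspere1 and Gm6356 did not pass the filter on low counts in these comparisons, and none of the other 10 was called. A call shared by all 3 was not possible, since edgeR called 0 genes in FLY and 0 in FL/FL. Hjurp stood at 0.49 ± 0.22, 0.24 ± 0.28 and 0.38 ± 0.38 there, and Plac9a at -1.20 ± 0.27, -0.22 ± 0.56 and -0.96 ± 0.52, with none of these values past the threshold. Whether the contrast differed between Ddx3x genotypes was not tested.

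The difference between genotypes was set against that at P5 with 5 WT and 5 BPtch libraries at each age, as an interaction in edgeR. BPtch P5 replicates 2 and 3, low in granule markers as given above, are part of this test. The WT and BPtch libraries of P5 also lie in different listing runs. Of 19070 genes 3 were called (0.0157%), all with a larger BPtch effect at P13. They were Plac9a (3.13 ± 0.46, adjusted p = 0.0327), Hjurp (1.85 ± 0.30, adjusted p = 0.0357) and Plac9b (2.78 ± 0.45, adjusted p = 0.0357). Hjurp held 178 to 335 CPM in BPtch and 120 to 281 in WT at P5, ranges that overlap. Plac9a held 1.52 to 2.52 CPM in BPtch and 1.18 to 2.97 in WT at P5. Without WT P13 replicate 3 edgeR called 0 of 19306 genes (0%), with 719 at an unadjusted p under 0.05 and a smallest adjusted p of 0.0742. The count was also 0 without any other single WT P13 library, without BPtch P13 replicate 1, 4 or 5, without BPtch P5 replicate 1, 2, 3 or 4 and without WT P5 replicate 3, 4 or 5, and it was 1 without WT P5 replicate 1.

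Of 147 tested genes within 10 Mb of Ptch1 on chromosome 13, 0 were called by edgeR with all libraries and 0 without WT replicate 3, 9 had an unadjusted p under 0.05, and their median log2 fold change was 0.03. With all libraries, 7 of the 12 calls were on chromosome 14, 3 on chromosome 1 and 1 each on chromosomes 6 and 18.

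Leaving out WT replicate 3 added 10 calls to the 12. Among those with known names, Myh7b, a myosin heavy chain gene, went from -1.41 ± 0.31 (adjusted p = 0.321) to -1.62 ± 0.19 (adjusted p = 0.0106). BPtch held 11.3, 8.63, 10.2, 9.08 and 13.2 CPM of it and WT 39.3, 34.4, 10.1, 36.2 and 21.1, with WT replicate 3 inside the BPtch range. Zfp949, a zinc finger gene, held 28.8 to 37 CPM in BPtch, 44.5 in WT replicate 3 and 63.6 to 135 in the other WT libraries (-1.6 ± 0.22 without that library, adjusted p = 0.0253). Dph7, an enzyme of diphthamide synthesis, Lyplal1, a lipase-like gene, and Grk5, a receptor kinase, were at -0.61, -0.89 and -0.71 in that fit (adjusted p = 0.0253, 0.0409 and 0.0409). With all libraries Grk5 was at -0.47 ± 0.34 (adjusted p = 0.947). WT replicate 3 held 8.37 CPM of Grk5, under the 21.3 to 28.7 of BPtch, and the other WT libraries held 37.1 to 44.6.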

How the data were processed

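RNA-seq libraries of mouse cerebella were compared, with groups and replicate numbers taken from the sample type labels. The authors deposited raw counts per gene (32075 genes, 257 libraries). HISAT2, featureCounts and the build GRCm38 are named, per the submitters' processing notes. The sources used here do not give versions, annotation release, strand setting or the treatment of reads that map to several genes. Paralogous and overlapping genes are therefore uncertain.

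Counts were fitted with edgeR 4.0.16 (R 4.3.3, limma 3.58.1): TMM factors, the quasi-likelihood F-test and filterByExpr (the equivalent of 10 counts at the median depth in as many libraries as the smaller group needs, and 15 counts in total). Each comparison used only its own groups. Each standard error was obtained by dividing the fold change (log2) by the root of its F value. The test was tried on simulated counts. Positions came from GENCODE M21 (31759 of 32075 IDs matched) and promoter sequences from RefSeq (GRCm38.p6).

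The libraries compared, the gene lists and the tests were chosen with earlier results of these data known. The rule for named genes took Ptch1, Fabp7, Ddx3x, the Shh lists, the called and lowest-p or defining members of other lists, up to 15 largest rises and falls among called genes of sufficient level with known names, genes called in all 3 other background comparisons and called genes near Ptch1. Predicted genes and pseudogenes among the 12 calls, and Lhx9, Meis2 and Slc17a6, were named after their values were seen. The calls of the FLPlus comparison, and those added without WT replicate 3, were also named after they were seen. Some genes on the lists or among the calls are not reported here by name. The replicate numbers pair no libraries by label. Alternatives were DESeq2 1.42.0, other normalization and filters, a replicate block, covariates and left-out libraries.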

Additional observations from a re-analysis of the deposited data

Results flagged for a closer look

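In 50 genes whose library values were read, both groups of 5 were checked for a library far from the others, 100 groups in all. For independent, normally distributed values about 1 group in 20 would be flagged. The groups here reuse the same libraries across genes, so that rate is no reference for these counts. The check found 7, 5 of them WT P13 replicate 3. That library was low for Sufu (24.7 CPM, the others 77.8 to 92.1), Zic1 (41.6, the others 1135 to 1555) and Dcx (61.3, the others 389 to 509). It was high for Ifih1 (3.39 CPM, the others 1.16 to 1.56) and Catspere1 (4.65, the others 1.56 to 2.36). WT P13 replicate 2 was high for Xist (2750 CPM, the others 2.46 to 4.05), and WT P13 replicate 5 for Gm5308 (23.4 CPM, the others 10.9 to 13.5).

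The BPtch effect at P13 differed from that at P5, by the edgeR interaction test, for Plac9a (3.13), Hjurp (1.85) and Plac9b (2.78). These calls were lost (0 genes) with the replicate block and in 15 of 20 fits that each left out 1 library. Plac9a and Plac9b share nearly all their transcript sequence, so their reads cannot be told apart.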

How the results depend on the processing

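The 12 calls between BPtch and WT kept their direction under all 23 alternatives. Hjurp and Gm6356 were called in all 23, Catspere1 in 21, Gm9780 in 10, Gm5308 and Tmem254c in 12, Catspere2 in 14 and the others in 19 or 20. The count of calls was 111 with DESeq2, 63 with all 12 cerebellar groups of P13 in 1 fit, 20 with the midbrain and brainstem level as covariate, 6 at an adjusted p under 0.01 and 2 without the libraries titled P14. Among alternatives chosen after seeing the data it was 59 with limma voom and sample quality weights, 21 without WT replicates 3 and 5 and BPtch replicate 2, and 4 without WT replicate 3 and the libraries titled P14. Leaving out single libraries gave 8 to 25 calls, with 25 without WT replicate 2 and 22 without WT replicate 3. For P13 minus P5 the count was 5 with DESeq2 and 0 to 4 with single libraries left out, 0 in 15 of 20 of these fits. For FLPlus it was 1162 with DESeq2, 12 with no low-count filter and 0 to 953 with single libraries left out. It was 953 without BD-FLPlus replicate 2, 15 without BD-FLPlus replicate 4, 3 without BD-FLPlus replicate 1 or BPtchD-FLPlus replicate 1, 1 without BPtchD-FLPlus replicate 2 or 3 and 0 without BPtchD-FLPlus replicate 4 or 5. For FLY it was 8 with DESeq2 and 0 with any library left out, and for FL/FL 33 with DESeq2 and 0 to 2, the 2 without BPtchD-FLFL replicate 2. The cause of these differences was not tested.

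With the replicate number as a block, 2 genes were called between BPtch and WT, 0 for P13 minus P5 and 0 for FLPlus. Same-numbered libraries did not deviate together (correlations of -0.129, -0.489, -0.242, 0.342 and 0.144 over 17855 genes), so the numbers give no pairing. No reported gene reversed while called. The WT libraries limit precision by their depth of 17037742 to 19898201 counts, and genes under 1 CPM rest on few reads.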
